A study of Mus musculus with 12 samples.

Results

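Microglia are the resident macrophages of the brain, and the 34 genes described here are ones that microglia express and, apart from a few such as Ctsd and Mertk, that most other cells of the cortex express little. They were taken by gene name from the deposited table of 28842 genes, and all 34 were found. The table holds 12 RNA sequencing libraries of prefrontal cortex from wild-type male C57BL/6J mice, 6 in which the mice had received saline from postnatal day 28 to day 42 and 6 in which they had received 15 mg/kg cocaine over the same days. Every mouse of either group was pre-tested on day 75. Each then received cocaine at 1 mg/kg ahead of its conditioned place preference sessions (days 76 and 77), and tissue was taken 30 to 60 min after a test on day 78. The saline group is therefore not free of cocaine, and by the labels the groups differ only in adolescent exposure. Its effect by itself cannot be told apart here from a changed response to the adult cocaine, training and test. Conditioned place preference measures how strongly an animal seeks a place paired with a drug.

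Several labels of these samples name a mesenchymal cell line in place of a tissue, and a time label puts the odd-numbered libraries of both groups at day 0 and the even-numbered ones at day 5, which has no place in the treatment schedule. The libraries held the transcripts of cortex: the FPKM (reads scaled to gene length and library total) of 8 excitatory neuron markers summed to between 711 and 943 in saline and to between 738 and 894 in cocaine libraries. Depth was 16.7 to 19.9 M reads per library, and mitochondrial transcripts took 3.24 to 5.43% of reads. Saline 5 stood apart through choroid plexus RNA, with Ttr at 11208 normalised reads against at most 13.2 in every other library. Whether a library stands for 1 mouse or a pool is not in the labels, and p-values here therefore cover only the spread among these libraries, which may be technical. In bulk tissue, fewer microglia and less RNA per microglial cell cannot be told apart.

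Microglia depend on the receptor Csf1r for survival, and they sense neurons and injury through the fractalkine receptor Cx3cr1 and a set of purinergic receptors. They take up synapses and debris through complement C1q, Trem2 and its signalling partner Tyrobp, and digest them in lysosomes. In the healthy brain a group of genes that includes P2ry12, Tmem119 and Sall1 marks the resting state, and several of these genes are known to fall when microglia are activated.

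All 34 genes had a mean FPKM of at least 1, the level needed to enter the test, so none was left out. None passed a test of the difference between groups. With limma over 13016 genes, 0 of 34 passed an adjusted p of 0.05, beside 0.0% of all genes tested, and the smallest adjusted p among the 34 was 1.00. At an unadjusted p under 0.05 the count was also 0 of 34, beside 1.14% of all genes tested. In 0 of 34 did the 6 libraries of one group lie wholly above or below those of the other, beside 0.0768% of all genes tested. The count tests on recovered reads gave the same count for these genes, 0 of 34 past the adjusted threshold with edgeR and 0 of 34 with DESeq2, beside 0.0% and 0.0104% of the genes each tested; at an unadjusted p under 0.05 both also gave 0 of 34, beside 1.58% and 1.48%. Over the 28 alternatives the unadjusted count was 0 in 12, 1 in 15 and 2 in 1. The genes were Cx3cr1 (11 alternatives), Cd68 (3) and P2ry6 (3). The share over all genes ran from 49 of 7679 (minimum mean FPKM 5) to 860 of 28842 (edgeR with no count filter). These alternatives refit the same libraries, so their counts do not add up as separate evidence. In direction, 28 of the 34 were lower in the cocaine libraries and 6 higher, beside 46.3% lower among all genes tested. The median difference was -0.07 (log2, cocaine minus saline), beside 0.01 over all genes tested, and single genes ranged from -0.26 to 0.36. The median was -0.04 without saline 1, -0.05 without cocaine 1, and -0.03 over the 16 genes left when the minimum mean FPKM was 5. The within-group SD of single genes had a median of 0.21 (log2) over the 34 genes.

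The intervals show what size of change the data leave room for. The 95% interval of the difference lay inside a 1.5-fold change in either direction for 33 of the 34 genes, P2ry6 being the exception, and inside a 1.25-fold change for 14. The tightest belonged to Tmem119, a surface protein restricted to microglia in the brain, at 408 ± 16.99 normalised reads (read counts scaled to a common library size) after saline and 421 ± 19.8 after cocaine (mean ± SD, n = 6 per group), with an interval from 0.932-fold to 1.14-fold.

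**Figure D1:**
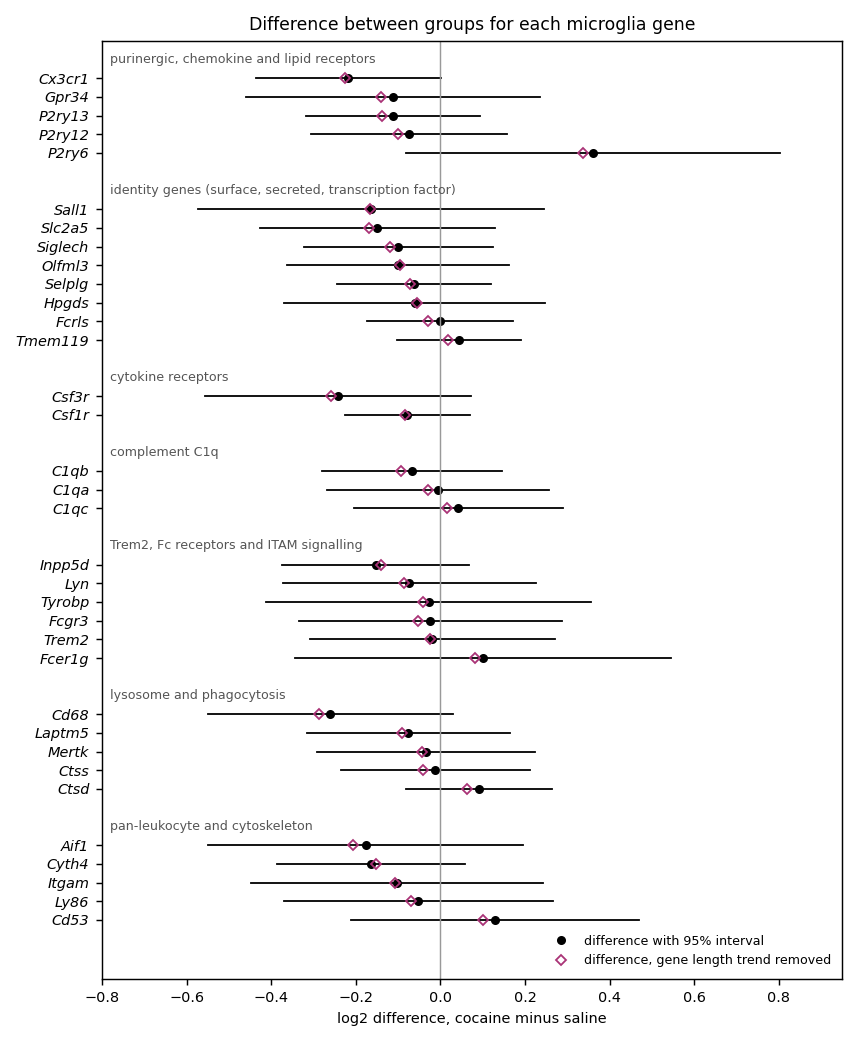
Difference between cocaine and saline libraries (log2, x axis) for each of the 34 microglia genes, grouped by role, with the 95% interval of the limma fit as a bar (6 libraries per group). Open diamonds give the difference after each library's trend with gene length was removed. Every interval includes 0, and 28 of the 34 points lie below it.

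The abundance of these transcripts spanned a wide range. On the length-scaled FPKM scale Ctsd, a lysosomal aspartic protease that many other cells also make, was highest at 79.8 ± 8.50 (SD over 12 libraries). C1qa (42.2 ± 7.17), C1qb (37.1 ± 5.11), the lysosomal protease Ctss (35.6 ± 5.08) and C1qc (19.1 ± 2.91) followed. The C1qa, C1qb and Ctss levels lay within their spread over libraries of each other. Library by library, C1qa was above C1qb in all but saline 4 (33.9 against 34.1). It was above Ctss in all but cocaine 3 (39.5 against 42.4). Next came Csf1r at 16.3 ± 0.962 and Tyrobp at 16.2 ± 3.93, which did not differ beyond their spread either, and then Tmem119 at 10.2 ± 0.590. P2ry12 (9.40 ± 1.33), Cx3cr1 (8.87 ± 1.26), Fcrls (8.19 ± 0.629) and Fcer1g (8.15 ± 2.17) formed a step of near-equal levels. The lowest were Slc2a5 (1.14 ± 0.154), P2ry6 (1.13 ± 0.308) and Hpgds (1.00 ± 0.177). Summed over the 34 genes, FPKM ran from 313 to 419 across saline and from 323 to 387 across cocaine libraries.

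**Figure D2:**
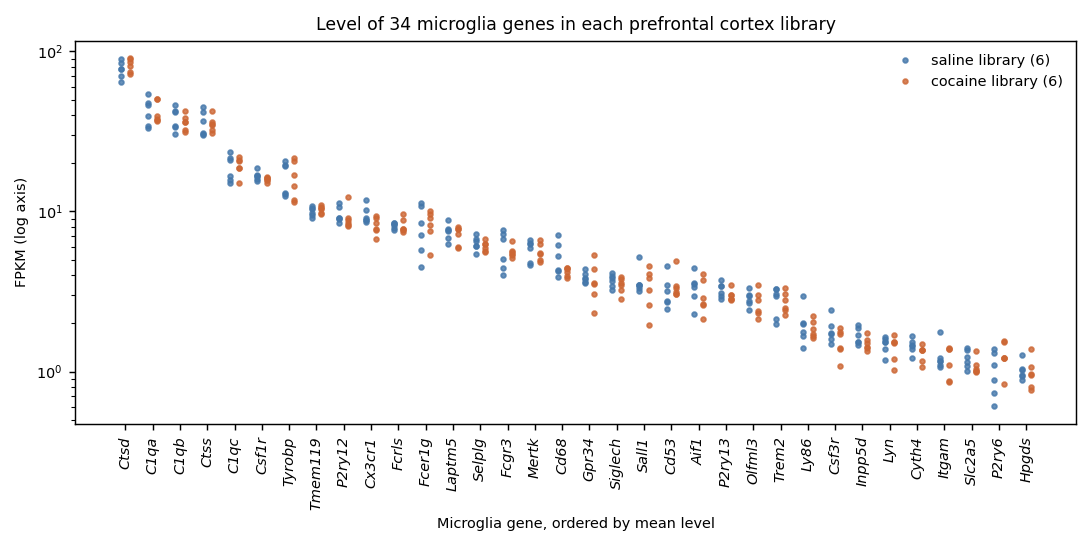
Level of each microglia gene (FPKM, log axis) in the 6 saline (blue) and 6 cocaine (orange) libraries, 1 point per library, ordered from Ctsd to Hpgds. The groups overlap in all 34 genes, and the points of Fcer1g, Tyrobp and P2ry6 are spread more widely than those of Tmem119 or Csf1r.

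The promoters were read for a feature that the choice of genes by name did not use. PU.1, the product of Spi1, is the factor that sets up the macrophage lineage, and it binds purine-rich sites with the core GAGGAA. RefSeq gene starts (GRCm38.p6) were found for 26 of the 34 genes, and GAGGAA on either strand lay in the 250 bases upstream of the start in 15 of the 26 (57.7%). The share was 46.2% in the second microglia list (12 of 26) and 25.9% over all 27025 genes with a promoter in the table (6986). Matches are a description of letters, not of binding. Some of the windows counted for the 34 genes hold annotated exon bases. Among those with a match these were 191 of the 250 bases in Laptm5 and 178 in Hpgds. In Cx3cr1, which had no match, they were all 250. The 4 sequences printed here stand for a complement gene, a receptor of the Tyrobp pathway, a purinergic receptor and a tetraspanin, each with a match within 50 bases of the start and none overlapping an annotated exon; they are written 5′ to 3′ on the strand of the gene, and capitals mark GAGGAA or its reverse complement TTCCTC. The match begins 30 bases before the start in C1qb, 40 in Trem2, 48 in P2ry13 and 39 in Cd53.
C1qb, chr4:136886201-136886450 (- strand): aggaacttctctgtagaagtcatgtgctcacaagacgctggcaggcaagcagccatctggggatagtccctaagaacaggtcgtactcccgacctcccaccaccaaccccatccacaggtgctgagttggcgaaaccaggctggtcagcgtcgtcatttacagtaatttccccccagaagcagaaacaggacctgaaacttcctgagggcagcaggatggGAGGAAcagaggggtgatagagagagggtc
Trem2, chr17:48346151-48346400 (+ strand): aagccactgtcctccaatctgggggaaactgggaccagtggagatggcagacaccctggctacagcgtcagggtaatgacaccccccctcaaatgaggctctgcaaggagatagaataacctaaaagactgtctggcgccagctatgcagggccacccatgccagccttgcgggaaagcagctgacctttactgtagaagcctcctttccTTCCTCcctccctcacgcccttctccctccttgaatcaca
P2ry13, chr3:59210883-59211132 (- strand): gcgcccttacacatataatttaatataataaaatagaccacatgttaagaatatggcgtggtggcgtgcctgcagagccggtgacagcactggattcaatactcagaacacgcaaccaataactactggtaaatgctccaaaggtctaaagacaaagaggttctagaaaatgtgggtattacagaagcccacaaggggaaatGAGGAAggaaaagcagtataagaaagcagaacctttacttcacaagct
Cd53, chr3:106790150-106790399 (- strand): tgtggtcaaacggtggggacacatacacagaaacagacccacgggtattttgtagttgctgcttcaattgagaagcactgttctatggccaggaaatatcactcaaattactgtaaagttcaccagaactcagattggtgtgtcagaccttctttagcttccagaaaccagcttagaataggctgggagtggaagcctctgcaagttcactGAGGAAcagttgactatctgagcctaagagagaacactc

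Among the receptors through which microglia sense their surroundings, 4 of 5 were lower and 1 higher. Cx3cr1 (ENSMUSG00000052336, minus strand of chromosome 9, 119901616 to 120069879, GRCm38), the receptor for neuronal fractalkine, ran from 696 to 911 normalised reads in saline with a median of 719. In cocaine libraries it ran from 531 to 752 with a median of 644. The 3 lowest values of the 12 were cocaine libraries (531, 596 and 609), and the highest was saline 1, but the groups overlapped. The difference was -0.22 ± 0.10 (log2, SE), with an unadjusted limma p of 0.0504 and an exact two-sided permutation p of 0.0628. The authors' deposited table gives it a p-value of 0.0543 and an adjusted p of 1.00. The neuronal ligand Cx3cl1 stood at 13774 ± 1178 normalised reads after saline and 14078 ± 1847 after cocaine (mean ± SD, n = 6 per group).

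P2ry6 (ENSMUSG00000048779, minus strand of chromosome 7, 100937630 to 100974649), a uridine nucleotide receptor that drives phagocytosis, went the other way. It ran from 31.9 to 68.65 normalised reads in saline (median 50.9) and from 43.0 to 78.1 in cocaine libraries (median 63.1). The 2 lowest values were saline and the 2 highest cocaine libraries, with overlap between. This was the largest difference of the 34 genes, 0.36 ± 0.21 (log2, SE; unadjusted limma p = 0.102, exact permutation p = 0.121), on reads so few that counting error alone was 13.1% per library.

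P2ry12 is the ADP receptor that guides microglial processes to injured cells. Its range was 385 to 496 normalised reads in saline (median 420) and 361 to 546 in cocaine libraries (median 391). Cocaine 3, at 546, was above all others, and the remaining 5 cocaine libraries did not exceed 404. P2ry13, a related ADP receptor encoded next to it on chromosome 3, ran from 129 to 162 and from 124 to 153. The lipid receptor Gpr34 ran from 136 to 154 in saline but from 85.5 to 195 in cocaine libraries, so the cocaine libraries held both its lowest and its highest value. Differences were -0.07 ± 0.11, -0.11 ± 0.10 and -0.11 ± 0.16 (log2, SE) for P2ry12, P2ry13 and Gpr34.

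Of the 8 genes grouped here as microglial identity genes, 7 were lower by the log2 difference, Fcrls among them at -0.0011, and 1, Tmem119, was higher. The transcription factor Sall1, which maintains microglial identity, ran from 282 to 470 normalised reads in saline (median 329) and from 181 to 414 in cocaine libraries (median 326). The 2 lowest values were cocaine 1 and cocaine 5, and the highest was saline 1, while the medians were close. Its difference was -0.16 ± 0.19 (log2, SE; exact permutation p = 0.474). The lectin Siglech ran from 187 to 254 and from 166 to 231, and the fructose transporter gene Slc2a5 from 58.85 to 84.9 and from 59.0 to 79.1.

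Fcrls, an Fc receptor-like protein of mouse microglia, had the difference nearest to 0 of the 34 genes, at 336 ± 15.9 normalised reads after saline and 337 ± 31.7 after cocaine (mean ± SD, n = 6 per group), so its mean was slightly higher after cocaine while its log2 difference was slightly below 0 (SE 0.08). The selectin ligand gene Selplg, the secreted glycoprotein gene Olfml3 and the prostaglandin D synthase gene Hpgds differed by -0.06 ± 0.08, -0.10 ± 0.12 and -0.06 ± 0.14. Of these 8 genes 0 passed the test.

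The cytokine receptors were both lower. Csf1r ran from 1275 to 1585 normalised reads in saline (median 1447) and from 1287 to 1454 in cocaine libraries (median 1371). The 3 highest values (1488, 1517 and 1585) were saline libraries, yet the lowest was one too, saline 6. Its difference was -0.08 ± 0.07 (log2, SE), with an interval from 0.856-fold to 1.05-fold. Its ligands Il34, made by neurons, and Csf1 stood at 1294 ± 132 and 392 ± 61.0 normalised reads after saline and at 1451 ± 213 and 387 ± 60.8 after cocaine (mean ± SD, n = 6 per group). Csf3r, the receptor of granulocyte colony-stimulating factor, ran from 95.3 to 150 in saline (median 111) and from 71.55 to 117 in cocaine libraries (median 98.4). Its 3 lowest values were cocaine libraries and its 2 highest saline libraries, with a difference of -0.24 ± 0.15 (log2, SE; exact permutation p = 0.117).

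The 3 chains of C1q, the recognition unit of the classical complement pathway that tags synapses, are encoded side by side on the minus strand of chromosome 4, C1qb from 136880129 to 136886187, C1qc from 136889804 to 136893065 and C1qa from 136895917 to 136898803. C1qa ran from 635 to 970 normalised reads in saline (median 779) and from 664 to 922 in cocaine libraries (median 711). C1qb ran from 611 to 867 and from 608 to 799, and C1qc from 532 to 787 and from 518 to 743. Groups overlapped almost fully in all 3, with differences of -0.01 ± 0.12, -0.07 ± 0.10 and 0.04 ± 0.12 (log2, SE). High values lay in the same libraries of both groups: saline 5 was the highest saline library for C1qa and C1qb, and cocaine 1 and cocaine 5 were the 2 highest cocaine libraries for C1qa and C1qb. Transcripts of C3, the substrate that the pathway deposits, reached at most 13 reads in any library. Of the 6 complement genes outside C1q that entered the test, 3 were lower and 3 higher, and 0 passed.

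Trem2, a lipid-sensing receptor, signals through the adaptor Tyrobp, and the Fc receptors signal through Fcer1g; both adaptors carry activation motifs that recruit kinases. In this set of 6 genes 5 were lower and 1 higher. Trem2 ran from 180 to 280 normalised reads in saline (median 261) and from 203 to 285 in cocaine libraries (median 227). Tyrobp ran from 149 to 237 (median 189) and from 139 to 250 (median 181), and the cocaine libraries held both its lowest and its highest value. Fcer1g, with the widest spread of the 34 genes, ran from 72.5 to 170 and from 85.7 to 153. Differences were -0.02 ± 0.13, -0.03 ± 0.18 and 0.10 ± 0.21 (log2, SE). The Fc receptor gene Fcgr3 ran from 126 to 225 in saline and from 160 to 196 in cocaine libraries, the kinase Lyn differed by -0.07 ± 0.14, and Inpp5d, a lipid phosphatase that restrains this signalling, by -0.15 ± 0.10.

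Of the 5 lysosomal and phagocytic genes 4 were lower and 1, Ctsd, higher. Cd68 (ENSMUSG00000018774, minus strand of chromosome 11, 69664213 to 69666153), a lysosomal membrane protein used as a sign of phagocytic microglia, ran from 87.2 to 153 normalised reads in saline with a median of 106. In cocaine libraries it ran from 86.1 to 97.7 with a median of 93.7. The cocaine libraries were thus close together, and saline 1, 5 and 6 lay above all of them at 114, 153 and 132, with saline 3 just above at 98.8. Counting error alone was 9.79% per library for Cd68, wider than the spread of the cocaine libraries. Their closeness is therefore finer than these reads can resolve. Means were 114 ± 24.7 and 93.1 ± 4.60 (mean ± SD, n = 6 per group), and the difference of -0.26 ± 0.14 (log2, SE) was the lowest of the 34 genes (unadjusted limma p = 0.0745, exact permutation p = 0.0693; the authors' deposited table gives a p-value of 0.0617).

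Ctsd ran from 2769 to 3610 normalised reads in saline and from 3085 to 3690 in cocaine libraries, a difference of 0.09 ± 0.08 (log2, SE). Ctss ran from 742 to 1048 and from 741 to 1003, a difference of -0.01 ± 0.10. The lysosomal membrane gene Laptm5 differed by -0.08 ± 0.11. Mertk, a receptor for dying cells and synapses that astrocytes also make, differed by -0.03 ± 0.12. Ctsd and Cd68 thus lay at opposite ends of this group, and 0 of the 5 passed.

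Of the 5 remaining genes, found across leukocytes, 4 were lower and 1 higher. Aif1, which encodes the actin-binding protein IBA1 used to stain microglia, ran from 64.8 to 117 normalised reads in saline (median 91.4) and from 59.5 to 108 in cocaine libraries (median 73.7). The integrin subunit gene Itgam ran from 95.1 to 153 and from 76.6 to 123, and the exchange factor gene Cyth4 from 168 to 218 and from 141 to 193. Cyth4 differed by -0.16 ± 0.10 (log2, SE; exact permutation p = 0.102) and Aif1 by -0.18 ± 0.17. Ly86, a partner of a Toll-like receptor relative, and the tetraspanin gene Cd53 differed by -0.05 ± 0.15 and 0.13 ± 0.16. A few of the 34 genes share exon bases with others, and how the authors' counting treated them is not given in the sources used here: 3450 of the 5024 exon bases of Itgam and 808 of the 2351 of Ctsd lie in overlapping gene models on the same strand (Gm49368 and Gm49369), and 873 of the 5774 of Csf1r lie opposite Hmgxb3. These exon bases are those of GENCODE M21, whose model of Csf1r differs from the deposited one, 4885 bases long.

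Among the microglia genes shorter than 2000 bases the larger pattern ran across libraries and not between groups, along a trend with gene length. The table's values are not divided by length, and each library had a trend along it. Over 2579 other tested genes shorter than 2000 bases, the median log2 deviation of a library from the gene's mean over 12 libraries ran from -0.21 in saline 4 to 0.25 in saline 5. Over 5095 other genes of 5000 bases or more it ran the opposite way, from -0.16 in saline 5 to 0.15 in saline 4. High and low libraries occurred in both groups: short genes were above 0.15 in saline 5 and 6 and in cocaine 1 and 5, and below -0.15 in saline 3 and 4 and in cocaine 2.

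The 10 microglia genes shorter than 2000 bases, which include the C1q genes, Tyrobp, Fcer1g, Fcgr3, Cd68 and Aif1, had much the same order. Their median deviation ran from -0.27 in saline 3 to 0.35 in saline 5, and was 0.13 in saline 6, 0.14 in cocaine 1, 0.15 in cocaine 5 and -0.13 in cocaine 2. The exception was saline 1, where they stood at 0.17 while other short genes stood at 0.00. The 18 microglia genes of 2000 to 5000 bases stayed between -0.08 and 0.11. The 6 of 5000 bases or more (Hpgds, Olfml3, Sall1, Itgam, Cyth4 and Inpp5d) did not keep the order of other long genes: they ran from -0.30 in cocaine 1 to 0.24 in saline 1.

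**Figure D3:**
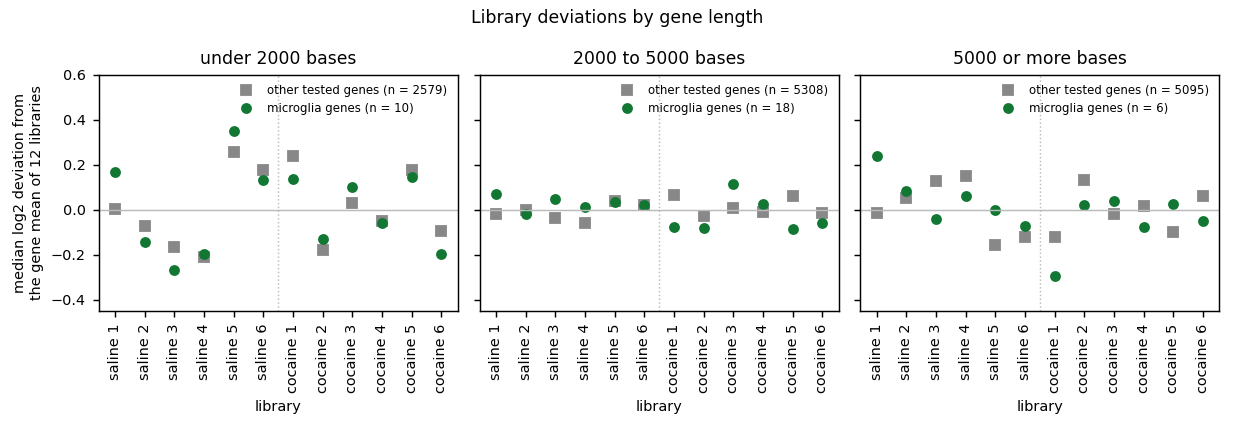
Median log2 deviation of each library from the gene means (y axis) for microglia genes (green circles) and all other tested genes (grey squares), in 3 classes of gene length; the dotted line parts the saline from the cocaine libraries. In genes shorter than 2000 bases both sets are high in saline 5 and low in saline 3 and 4, while the middle class stays near 0.

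When each library's trend with length, fitted over all 13016 genes, was removed (an alternative chosen after seeing the data), the spread of most short genes shrank, Ctss and Cd53 being exceptions. The within-group SD fell from 0.22 to 0.09 (log2) for C1qa, from 0.17 to 0.09 for C1qb, from 0.34 to 0.17 for Tyrobp and from 0.39 to 0.23 for Fcer1g. That of Ctsd fell from 0.12 to 0.06. It did not shrink everywhere: it was smaller in 17 of the 34 genes, and it rose from 0.06 to 0.12 in Tmem119, whose deposited values had varied by 4.43% within groups, less than its counting error of 4.89%. Over all genes tested the median SD went from 0.22 to 0.20.

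**Figure D4:**
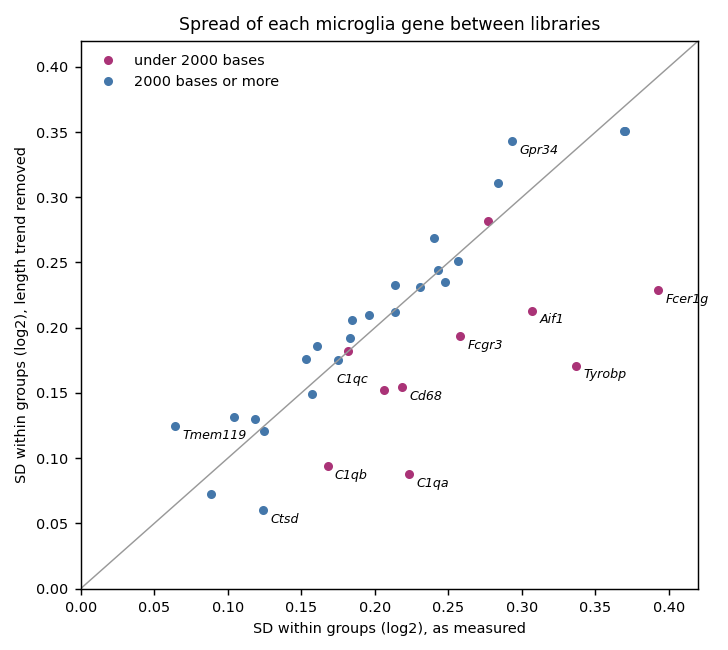
Within-group SD (log2) of each microglia gene as measured (x axis) and after removal of each library's trend with gene length (y axis), 12 libraries; the line marks equal values. Short genes such as C1qa, Tyrobp and Fcer1g fall well below the line, and Tmem119 and Gpr34 lie above it.

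The group difference stayed small after this step. Again 0 of 34 genes passed the adjusted threshold, beside 0.0% of all genes tested, and 28 of 34 were lower, beside 49.0%; the median difference was -0.08 (log2). At an unadjusted p under 0.05 there were 2 of 34, Cd68 and Cx3cr1, beside 1.44% of all genes. With limma on these values Cd68 differed by -0.29 ± 0.11 (log2, SE; unadjusted p = 0.0207, adjusted p = 1.00). Cx3cr1 differed by -0.23 ± 0.10 in the same limma fit (unadjusted p = 0.0378, adjusted p = 1.00).

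Correlations between the 34 genes were computed over the 12 libraries with group means removed, for 561 pairs, with permutation tests of 100000 resamples within groups. As measured, 20 of the 45 pairs of short genes had a Pearson r above 0.7, against 19 of the other 516 pairs; 0 pairs passed an adjusted p of 0.05. C1qa and C1qb had r = 0.889 (permutation p = 0.00086, adjusted p = 0.0965) and Spearman's rho = 0.811 (permutation p = 0.00423, adjusted p = 0.174), with r = 0.861 without the 2 libraries farthest from the median. With the length trend removed, 1 of the 45 pairs of short genes kept an r above 0.7, and r between C1qa and C1qb was 0.314 (permutation p = 0.339).

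After removal of the trend 2 of the 561 pairs passed an adjusted p of 0.05, on values that share the subtracted trends of the same libraries. Csf1r and Ctss had r = 0.864 (permutation p = 8e-05, adjusted p = 0.0337; rho = 0.881, permutation p = 0.00044), with r = 0.829 without the 2 libraries farthest from the median. As measured their r had been 0.177 (permutation p = 0.653). P2ry12 and Ctss had r = 0.851 (permutation p = 0.00012, adjusted p = 0.0337; rho = 0.776, permutation p = 0.00335), with r = 0.795 without 2 libraries, and 0.750 as measured. Trem2 and Tyrobp, receptor and adaptor, had r = 0.556 as measured and 0.341 with the trend removed (permutation p = 0.0681 and 0.263).

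**Figure D5:**
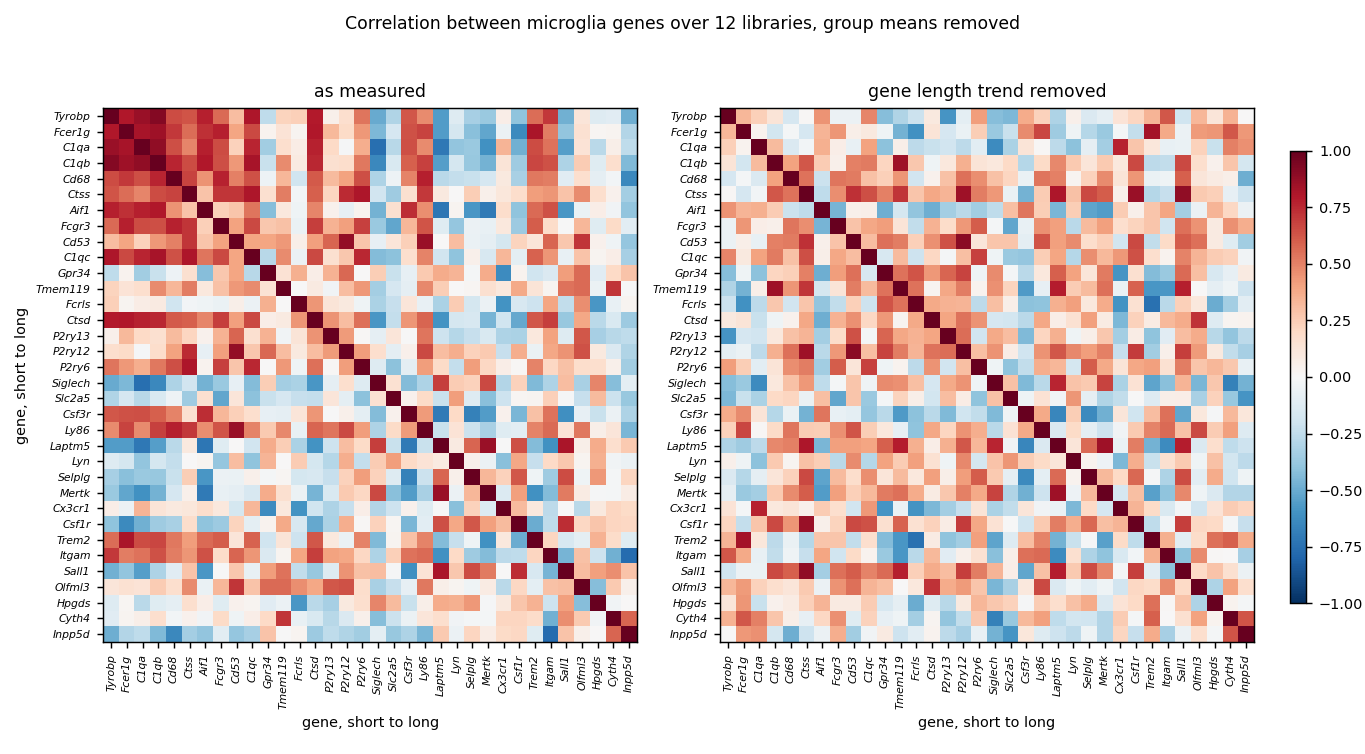
Pearson's r between each pair of the 34 microglia genes over 12 libraries with group means removed, ordered from the shortest gene to the longest, as measured (left) and after removal of each library's trend with gene length (right). The red block of short genes from Tyrobp to C1qc at the upper left, where 20 of 45 pairs exceed 0.7, is largely gone at the right, where 1 does.

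Libraries also differed in how many of the genes they held at a high level. Saline 1 lay above the gene's median over 12 libraries in 27 of the 34 genes, both as measured and with the length trend removed. Cocaine 6 did so in 6 as measured and 9 with the trend removed, and cocaine 1 in 13 and 9. Saline 5 held the highest value of 9 genes and saline 1 of 8. Myelin genes varied widely across these libraries: the mean deviation of 10 oligodendrocyte markers ran from -1.59 in saline 4 to 1.24 in saline 1 (log2). Beside it, the median deviation of the 34 genes ran from -0.08 in saline 3 to 0.19 in saline 5. These ranges are of unlike measures, a mean and a median. A median over all 34 also hides opposite deviations, such as 0.14 in short and -0.30 in long microglia genes in cocaine 1. With the oligodendrocyte level as a covariate 24 of the 34 genes were lower and the median difference was -0.06.

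Other immune cells left little RNA in these libraries. The summed FPKM of 10 perivascular macrophage markers was 2.31 to 3.92 in saline and 2.40 to 3.95 in cocaine libraries, and Mrc1, which defines these cells, stayed between 13.8 and 60.5 normalised reads. The sum of 9 monocyte and neutrophil markers was 0.0367 to 7.44 and 0.101 to 1.83, with Ccr2 at no more than 5 reads in any library. For 8 lymphocyte markers it was 0.545 to 1.01 and 0.346 to 1.15, with Cd3e at no more than 4 reads. Perivascular macrophages had 1 tested marker, the scavenger receptor gene Stab1, which differed by -0.22 ± 0.11 (log2, SE; exact permutation p = 0.0584, adjusted limma p = 1.00).

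Some genes of activated microglia had few reads. Cst7, Itgax and Clec7a, which rise in microglia around amyloid plaques, reached at most 3, 7 and 9 reads in any library, and the cytokines Tnf, Il6 and Il1b at most 2, 3 and 13. Of 20 genes known from disease-associated microglia 14 entered the test, 8 lower and 6 higher with a median of -0.03 (log2), and 0 passed. Cst7, Itgax and Clec7a are the 3 of these 20 with a mean FPKM under 0.1. Lpl had the smallest p of the list, at 214 ± 28.1 normalised reads after saline and 246 ± 20.8 after cocaine (mean ± SD, n = 6 per group). Its difference was 0.20 ± 0.10 (log2, SE), with an unadjusted limma p of 0.0659, and of 0.0144 with the length trend removed. Several of the 20 genes, such as Apoe, are made mostly by other cells in healthy brain. Of 17 inflammatory genes 3 entered the test, 1 lower and 2 higher, and 0 passed.

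A second list of 36 microglia-enriched genes outside the 34 was read beside them. Of its members 20 entered the test, 11 lower and 9 higher with a median of -0.03 (log2), and 0 passed. Over all 36, the filter aside, 26 were lower and the median was -0.05. Whether the share of lower genes differs between this list and the 34 was not tested. The myeloid transcription factor gene Spi1 stood at 72.2 ± 20.6 normalised reads after saline and 75.8 ± 12.5 in cocaine libraries (mean ± SD, n = 6 per group). The smallest p of the list belonged to Ltc4s, a leukotriene synthase gene, at 17.1 ± 10.7 and 25.4 ± 8.42, and the next to the perforin-like gene Mpeg1, at 416 ± 73.3 and 360 ± 57.7. Of 14 ligands and partners of the receptors 11 entered the test, 5 lower and 6 higher, and 0 passed; Ptpn6, a phosphatase that dampens such signalling, stood at 60.5 ± 4.77 and 50.1 ± 12.6.

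Beside the microglia genes, markers of the other cell types of the tissue gave 0 genes past the adjusted limma threshold. Lower were 3 of 8 tested excitatory neuron markers, 5 of 8 for interneurons, 5 of 8 for astrocytes, 10 of 10 for oligodendrocytes, 8 of 8 for their precursors, 6 of 8 for endothelium, 4 of 5 for mural cells and fibroblasts, 3 of 3 for choroid plexus and ependyma (with saline 5 holding the choroid RNA), 6 of 8 for striatal neurons and 0 of 4 for red blood cells. The direction of the microglia genes therefore went along with lower oligodendrocyte and precursor markers, whose part in it was tested only through the covariate above.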

How the data were processed

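RNA sequencing of prefrontal cortex gave 12 libraries, 6 per group, grouped by the treatment label. Per the submitters' processing notes reads were aligned with HISAT2 2.0.5; the notes name the human build hg38, while gene coordinates equal those of GENCODE M21 (GRCm38) for 28008 of 28842 genes. Which counter, strand setting and annotation were used is not given in the sources used here. The authors deposited 1 table. Its library columns hold a signal: the authors' read counts, each library scaled by 1 size factor, with no division by length although the table is named FPKM. Dividing by the size of 1 read gave whole reads for 100% of values (tolerance 0.01 read), and these reads totalled 16.7 to 19.9 M per library. Counting errors are Poisson errors of these reads. The deposited table also gives, per the file headers, gene length in bases, group means and the authors' comparison as log2 fold change with p-value, raw and adjusted.

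FPKM was computed here from value, length and column sum, and genes with a mean of at least 1 were tested. The test was limma 3.58.1 (variance trend, two-sided, no covariates) in R 4.3.3 on log2(value + 1), with Benjamini-Hochberg adjustment over 13016 genes. The 1 added before taking logs understates changes of low genes. Means and SDs are of the deposited values ("normalised reads"). Single genes also had an exact permutation test over 924 splits, which cannot go below p = 0.00216. Alternatives were 2 pseudocounts, 3 filters, 2 scalings, library weights, a fit with no variance trend, the replicate number, the day 0 or day 5 time label, the oligodendrocyte level, edgeR 4.0.16, DESeq2 1.42.0 and leaving out each library. Added after seeing the data was removal of each library's loess trend (span 0.3) of log2 deviation on log2 gene length.

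The 34 genes, their 7 role groups and 18 other lists (microglia-enriched, ligands and partners, complement, disease-associated, inflammatory and 13 cell type lists) were chosen with earlier results of these data known. The rule for names took all 34 genes, the 2 with the smallest p of each other list, and markers needed to state a level; of the other lists, names are given only where a result turned on them. Cx3cl1, Csf1, Spi1, C3, Apoe, Cst7, Itgax, Clec7a, Tnf, Il6, Il1b, S100a8 and S100a9 were named after their values were seen.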

Additional observations from a re-analysis of the deposited data

Results flagged for a closer look

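In 6 of the 68 groups of 6 libraries examined (34 genes in 2 groups), 1 library stood far from the other 5. The measure was the gap to its neighbour as a share of the group's range, without logs (Dixon's test at the 95% level). Chance gives about 1 in 20 for independent groups with a normal spread. These 68 are not independent, since they share libraries and some genes correlate (P2ry12 and Cd53, r = 0.88 as measured). Cocaine 3 was the highest cocaine library for Cd53, at 150 normalised reads against 103 in the next (share 0.819), and for P2ry12, at 546 against 404 (share 0.764). Saline 5, the library with choroid plexus RNA, was the highest saline library for Itgam, at 153 against 111 (share 0.716), and for Ly86, at 184 against 127 (share 0.635). Saline 1 was the highest for Sall1, at 470 against 335 (share 0.719). Cocaine 4 was the highest of its group for Slc2a5, at 79.1 against 65.6 (share 0.673). All 6 were high values, and none was a low one, on a scale without logs that widens gaps at the high end.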

How the results depend on the processing

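Over 28 alternatives none of the 34 genes passed the adjusted threshold, and their smallest adjusted p was 0.972. The count over all genes was 0 except with DESeq2, which gave 3, none of them among the 34. The median difference of the 34 (log2) stayed below 0, between -0.09 and -0.04 without single libraries, with -0.04 without saline 1 and -0.05 without cocaine 1, and was -0.03 at a minimum mean FPKM of 5. The number of lower genes ran from 22 to 28 without single libraries, and was 12 of the 16 genes left at that minimum, a change that follows from fewer genes tested. Single genes turned sign in 9 of the 526 values from other settings: Fcrls to 0.00636 with edgeR and 0.00359 with DESeq2; with library weights C1qc to -0.0236, Fcgr3 to 0.0458 and Ly86 to 0.0286; with the oligodendrocyte level as a covariate C1qa to 0.00719, Trem2 to 0.00968, Fcgr3 to 0.0101 and Ctss to 0.00927. The cause was not tested. Without single libraries 13 genes turned, ranging from -0.0604 to 0.0634 for C1qa, -0.00857 to 0.11 for C1qc, -0.0636 to 0.0495 for Ctss, -0.0349 to 0.21 for Fcer1g, -0.12 to 0.0496 for Fcgr3, -0.0442 to 0.0174 for Fcrls, -0.23 to 0.0111 for Gpr34, -0.16 to 0.0101 for Hpgds, -0.13 to 0.0655 for Ly86, -0.15 to 0.00591 for Lyn, -0.10 to 0.0102 for Mertk, -0.0992 to 0.0278 for Trem2 and -0.12 to 0.0514 for Tyrobp. The other 21 kept their sign when single libraries were left out and in the other settings run. Same-numbered saline and cocaine libraries deviated together in some pairs only (r from -0.399 to 0.435, and 2 of 6 correlated best with their own number). Such correlations take in every difference between libraries, so they cannot tell whether the numbers pair the mice, which the labels do not say. With the replicate number as a block 0 genes passed, 28 of 34 were lower and the median was -0.07. Depth limits the low genes most: counting error was 13.1% per library for P2ry6 and 1.73% for Ctsd.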
